A study of Danio rerio with 13 samples.

Results

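Transducin is the G protein of vertebrate photoreceptors, and the genes described here encode its subunits in rods and cones: the alpha subunit genes gnat1 (rod) and gnat2 (cone), the beta subunit genes gnb1b (the gnb1 type, which rods use) and gnb3b (cone), and the gamma subunit genes gngt1 (rod), gngt2a and gngt2b (cone). They were measured by 9 of the 15502 probe sets analysed, each taken by its gene symbol in the platform annotation. 8 of the 9 were among the 10307 probe sets kept by the intensity filter, and these 8 cover all 7 genes. The genes were chosen with earlier results of these data in view, in which knockdown hearts were set against control hearts. Their differences between those groups are therefore a description, with no test.

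The study profiled RNA of purified zebrafish hearts, taken from embryos 3 days old, on 13 1-colour Affymetrix arrays, 1 per sample. The atg5 group (3 arrays), the becn1 group (3) and the atg7 group (2) came from embryos given a morpholino against that autophagy gene. Atg5 and Atg7 work in the conjugation system that builds autophagosome membranes, and Beclin 1, the product of becn1, in the lipid kinase complex that starts them. The control group (2) had been given a control morpholino, and the uninjected group (3) none. Morpholinos are synthetic antisense oligonucleotides which, for a few days, keep the target RNA from being translated or spliced. The sources used here do not say which of these steps each morpholino blocked. Injections were made into fertilized eggs before the first division. becn1 3 is titled "becn" and was counted as becn1. The labels call the arrays biological replicates without the number of embryos behind each, so spreads and p-values below are those between heart preparations. Arrays are named by group and replicate number.

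In photoreceptors, light-activated opsin makes the transducin alpha subunit exchange GDP for GTP and leave its beta and gamma partners. The freed alpha subunit activates the phosphodiesterase PDE6, cyclic GMP falls and the cation channels of the outer segment close. Rods and cones use different subunit genes, which makes these genes markers of the photoreceptor types of the eye, and some of them are also used in the photoreceptors of the fish pineal. They are not known as heart genes, except that beta subunits of the gnb1 type serve G proteins in many tissues.

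Values are normalized intensities, that is deposited signal intensities after quantile normalization, and differences are on their log2 scale with the standard error (SE) of a 5-group fit. The authors' files hold no detection calls, and signals under 16 were treated as weak. Median deposited intensities were 32.4 to 65.4 between arrays, and 25.3% to 35.6% of the probe sets of an array were under 16. The ratio of 3' to 5' GAPDH signal, a sign of RNA integrity, was 2.30 to 3.28 on 12 arrays and 5.98 on atg7 2. The same ratio for actin was 8.03 to 29.9 on those 12 and 86.2 on atg7 2. The targeted gene atg5 had 303, 307 and 282 on the atg5 arrays on its brighter probe set, 298 and 234 on the control arrays and 248 to 289 on the uninjected arrays. A knockdown by morpholino can leave the RNA of its target as it was, so this checks no label. No probe set is named for becn1 or atg7. The heart markers nkx2.5, gata4, tbx5a and tbx20 did not pass the intensity filter. The cardiac myosin light chain gene myl7 was above 16 on every array. It had 919, 107 and 207 on the atg5 arrays, 769, 141 and 131 on the becn1 arrays, 1067 and 120 on the atg7 arrays, 176 and 148 on the control arrays and 99.3, 345 and 112 on the uninjected arrays. The knockdown arrays numbered 1 stood apart from the rest by this measure, and the results below are also given without these 3 arrays, a choice made after the data were seen. For atg7 that leaves only atg7 2, the array with the highest 3' to 5' ratios. Each atg7 value without the arrays numbered 1 is thus that of 1 array.

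gnat2, the cone alpha subunit gene, has 2 probe sets, a brighter and a dimmer one, and both gave lower signals on all 8 knockdown arrays than on any control or uninjected array. On the brighter probe set gnat2 had intensities of 152, 216 and 345 on the atg5 arrays, 12.5, 90.9 and 169 on the becn1 arrays, 14.3 and 51.4 on the atg7 arrays, 787 and 525 on the control arrays and 1016, 383 and 987 on the uninjected arrays. The becn1 array numbered 1 and the atg7 array numbered 1 were the 2 lowest, and both lay under 16. Against the control morpholino the differences were -1.52 (SE 0.89) in atg5 hearts, -3.48 (SE 0.89) in becn1 hearts and -4.57 (SE 0.97) in atg7 hearts. With values under 16 set to 16 those of becn1 and atg7 were -3.36 and -4.49. Without the knockdown arrays numbered 1 they were -1.24, -2.37 and -3.64, the last from atg7 2 alone.

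The dimmer gnat2 probe set had 34.5, 40.1 and 29.4 on the atg5 arrays, 1.04, 14.2 and 25.9 on the becn1 arrays, 6.37 and 7.09 on the atg7 arrays, 189 and 124 on the control arrays and 285, 84.6 and 199 on the uninjected arrays. Both atg7 arrays and 2 of the 3 becn1 arrays were under 16, so only a bound can be given for atg7. With values under 16 set to 16, gnat2 was lower by at least 3.26 on the log2 scale in atg7 hearts than in control hearts on this probe set. The difference was -2.15 (SE 0.98) in atg5 hearts and -3.02 in becn1 hearts, where the becn1 value has the same floor and is also a bound. The brighter probe set had the lowest mean in atg7, then becn1, then atg5 hearts. On the dimmer one atg7 and becn1 were both below atg5, and their order is not read, since it rests on signals under 16. On both probe sets the control and uninjected arrays overlapped each other above the knockdowns, and the atg7 and becn1 arrays overlapped.

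gnat1, the rod alpha subunit gene, gave low signals, some of them near or under 16. On its kept probe set it had 32.5, 47.5 and 52.1 on the atg5 arrays, 5.29, 31.1 and 34.0 on the becn1 arrays, 14.7 and 25.2 on the atg7 arrays, 101 and 69.9 on the control arrays and 114, 46.4 and 80.8 on the uninjected arrays. All 8 knockdown arrays lay below both control arrays, and the atg5 arrays overlapped the uninjected arrays. The differences from the control morpholino were -0.96 (SE 0.66) in atg5 hearts, -2.24 (SE 0.66) in becn1 hearts and -2.13 (SE 0.73) in atg7 hearts, and -1.71 and -2.07 for becn1 and atg7 with values under 16 set to 16. Without the knockdown arrays numbered 1, gnat1 differed by -0.76 in atg5, -1.37 in becn1 and -1.74 in atg7 hearts. The other gnat1 probe set was not kept by the filter. It ranged from 4.62 to 26.1 over the 13 arrays and was under 16 on all becn1 and atg7 arrays and on 2 of 3 atg5 arrays, so no difference is given for it.

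gnb3b, the cone beta subunit gene, had the smallest standard errors among the cone genes. Its intensities were 129, 198 and 165 on the atg5 arrays, 22.0, 43.3 and 106 on the becn1 arrays, 16.4 and 30.6 on the atg7 arrays, 433 and 348 on the control arrays and 614, 261 and 426 on the uninjected arrays. None was under 16, and no knockdown array reached the lowest control or uninjected array. Against the control morpholino gnb3b differed by -1.27 (SE 0.54) in atg5 hearts, -3.06 (SE 0.54) in becn1 hearts and -4.11 (SE 0.59) in atg7 hearts. Against uninjected hearts, which share the knockdown arrays with that comparison, the differences were -1.34 (SE 0.48), -3.13 (SE 0.48) and -4.19 (SE 0.54) in the same order of groups. Leaving out any 1 array kept the gnb3b difference from the control morpholino between -1.43 and -1.11 in atg5, between -3.65 and -2.52 in becn1 and between -4.57 and -3.66 in atg7 hearts. Without the knockdown arrays numbered 1 it was -1.11 in atg5, -2.52 in becn1 and -3.66 in atg7 hearts.

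gnb1b, the beta subunit gene of the widely used gnb1 type, did not follow the others. It had 1721, 2582 and 2102 on the atg5 arrays, 1986, 1625 and 2205 on the becn1 arrays, 1589 and 1490 on the atg7 arrays, 1779 and 2084 on the control arrays and 2284, 2293 and 1850 on the uninjected arrays. Of the 3 knockdown groups only atg7 had all its arrays below the control arrays. The differences of gnb1b from the control morpholino were 0.13 (95% interval -0.26 to 0.52) in atg5 hearts, -0.32 (95% interval -0.75 to 0.10) in atg7 hearts and close to 0 (95% interval -0.39 to 0.38) in becn1 hearts. The sign in becn1 hearts turned with the scaling, to 0.35 on the deposited scale and 0.09 with median centring, while gnb1b in atg7 hearts was at -0.01 on the deposited scale and -0.20 with median centring.

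gngt2b, a cone gamma subunit gene, had the largest standard errors of the 8 kept probe sets. It had 1374, 2062 and 1933 on the atg5 arrays, 26.0, 524 and 1265 on the becn1 arrays, 47.5 and 364 on the atg7 arrays, 4124 and 2950 on the control arrays and 4606, 2102 and 3873 on the uninjected arrays. All knockdown arrays lay below all control and uninjected arrays, although the highest atg5 array was close to the lowest uninjected one. The differences from the control morpholino were -0.98 (SE 1.23) in atg5 hearts, -3.75 (SE 1.23) in becn1 hearts and -4.73 (SE 1.34) in atg7 hearts. The becn1 and atg7 arrays numbered 1 decided much of their size, since gngt2b differed by -0.80, -2.10 and -3.26 in atg5, becn1 and atg7 hearts without the knockdown arrays numbered 1.

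gngt2a, the other cone gamma subunit gene, differed less. It had 257, 563 and 521 on the atg5 arrays, 37.8, 263 and 278 on the becn1 arrays, 80.2 and 211 on the atg7 arrays, 837 and 438 on the control arrays and 962, 351 and 534 on the uninjected arrays. The becn1 and atg7 arrays lay below all control and uninjected arrays, while 2 of the 3 atg5 arrays lay within the range of the control arrays. Its differences from the control morpholino were -0.52 (SE 0.77) in atg5 hearts, -2.11 (SE 0.77) in becn1 hearts and -2.22 (SE 0.84) in atg7 hearts. Without the knockdown arrays numbered 1, gngt2a differed by -0.16, -1.16 and -1.52 in the same groups.

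gngt1, the rod gamma subunit gene, separated the atg5 hearts from those of the other knockdowns, as gnb3b, gngt2b and the dimmer gnat2 probe set also did. It had 357, 395 and 442 on the atg5 arrays, 57.8, 148 and 208 on the becn1 arrays, 132 and 135 on the atg7 arrays, 575 and 408 on the control arrays and 688, 294 and 499.5 on the uninjected arrays. All becn1 and atg7 arrays were below every atg5, control and uninjected array, and the atg5 arrays overlapped both the control and the uninjected arrays. Against the control morpholino gngt1 differed by -0.29 (SE 0.45) in atg5 hearts, by -2.00 (SE 0.45) in becn1 hearts and by -1.86 (SE 0.50) in atg7 hearts, and the atg5 value turned to 0.01 on the deposited scale. Against uninjected hearts the gngt1 difference in atg5 hearts was -0.23 (SE 0.40), and it turned to 0.05 without uninjected 1. Without the knockdown arrays numbered 1, gngt1 differed from the control morpholino by -0.21, -1.47 and -1.84 in atg5, becn1 and atg7 hearts.

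**Figure D1:**
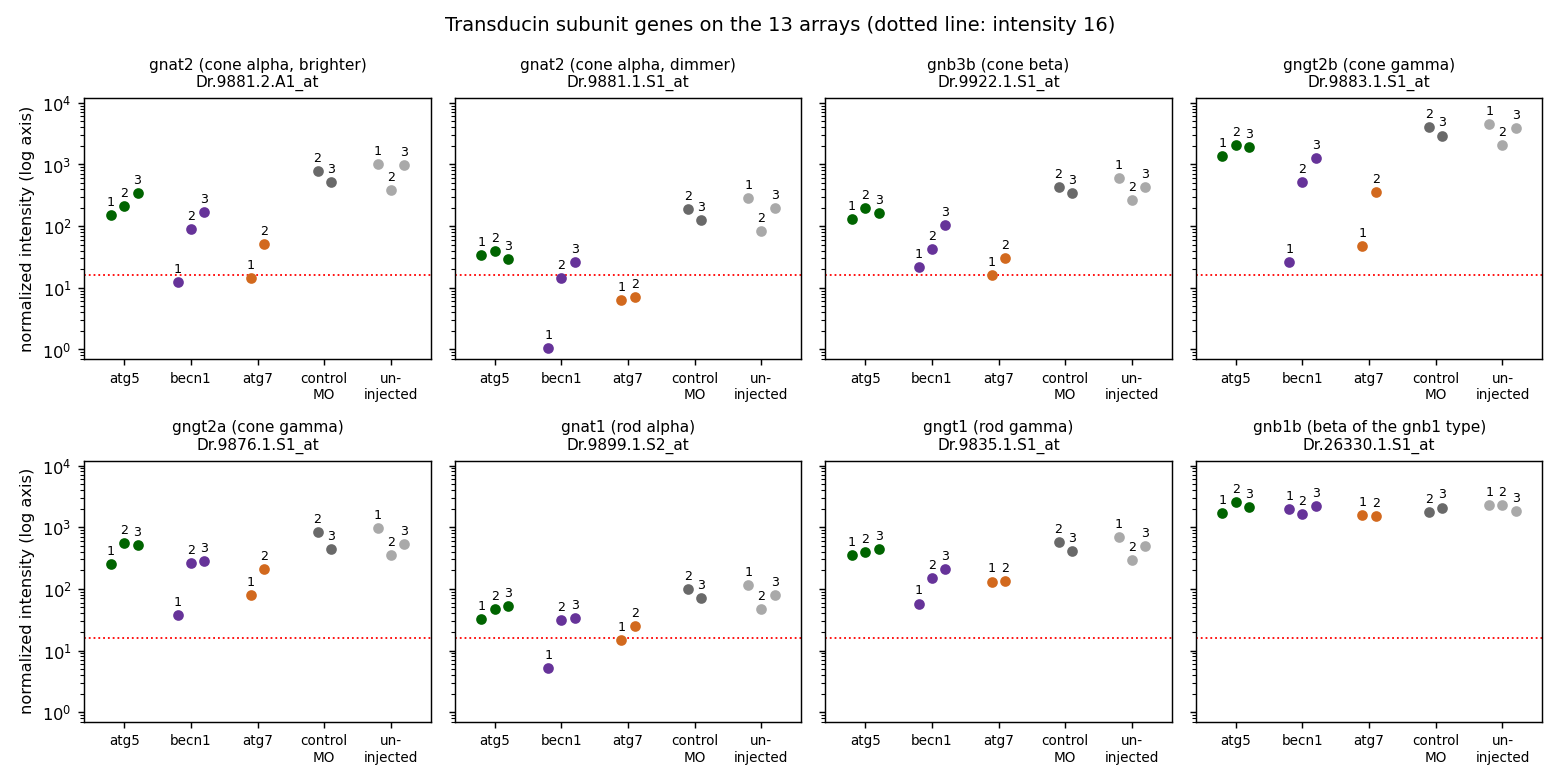
Normalized intensity (log axis) of the 8 kept transducin probe sets on the 13 arrays, grouped by treatment, with the replicate number above each point and a dotted line at 16. In every panel but that of gnb1b, where the becn1 points overlap the others, the becn1 and atg7 points lie below the control and uninjected points.

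In bulk heart preparations, fewer photoreceptor cells in a preparation and less of a transcript in each of them cannot be told apart. Across the 7 genes, with 1 probe set each, the median difference from the control morpholino was -0.96 in atg5, -2.24 in becn1 and -2.22 in atg7 hearts, beside medians over all kept probe sets of 0.01 to 0.02 in these comparisons. Of the 8 kept transducin probe sets, 5 in atg5 hearts, 7 in becn1 hearts and 8 in atg7 hearts had all knockdown arrays below both control arrays. Over all 10307 probe sets that held for 7.64% in atg5, 8.2% in becn1 and 18.8% in atg7 hearts, and since this contrast chose the genes nothing is read from their counts.

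The calls over the whole array place the transducins in the fit and are no test of them, since these comparisons were in view when the genes were chosen. With limma (two-sided, Benjamini-Hochberg adjusted p under 0.05 over the 10307 probe sets), no transducin probe set was called in atg5 or becn1 hearts against the control morpholino, where 0% of all probe sets were called in either. At an unadjusted p under 0.05 there were 248 probe sets in atg5 and 544 in becn1 hearts. In atg7 hearts gnb3b was 1 of 6 probe sets called against the control morpholino (0.0582%), and that call was lost without either control array or either atg7 array. On the deposited scale gnb3b and both gnat2 probe sets were among 5 probe sets called in becn1 hearts, and gnb3b, both gnat2 probe sets and gngt2b among 29 in atg7 hearts. Against uninjected hearts no transducin probe set was called in atg5 (0% of all) or becn1 hearts (0.0097%), and gnb3b and both gnat2 probe sets were called in atg7 hearts (3.08%). Both gnat2 calls were lost without atg7 1, atg7 2, uninjected 1 or uninjected 3, and the gnb3b call was lost without atg7 1. In that comparison 4 of 8 transducin probe sets in atg5, 7 in becn1 and 8 in atg7 hearts had all knockdown arrays below all uninjected arrays, beside 7.38%, 6.66% and 17.7% of all probe sets. The atg7 array numbered 2 also had the highest GAPDH 3' to 5' ratio, 5.98, whose part in these values was not tested.

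Control and uninjected hearts were the comparison without any autophagy knockdown. The 8 differences, control morpholino over uninjected, were -0.18 to 0.16, with a median over the 7 genes of 0.06. None was called, as for 0% of all probe sets, and at an unadjusted p under 0.05 there were 266 probe sets in all. No transducin probe set separated these groups in the lower direction, where 7.28% of all probe sets did. The intervals were wide: for gnb3b the difference was -0.07 with a 95% interval of -1.24 to 1.09, and for gngt2b 0.06 with an interval of -2.60 to 2.72. On the deposited scale, which moved the median of all probe sets by -0.32 here and by 0.29 (atg5), 0.33 (becn1) and 0.27 (atg7) against the control morpholino, the 8 values of this comparison were all below 0.

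**Figure D2:**
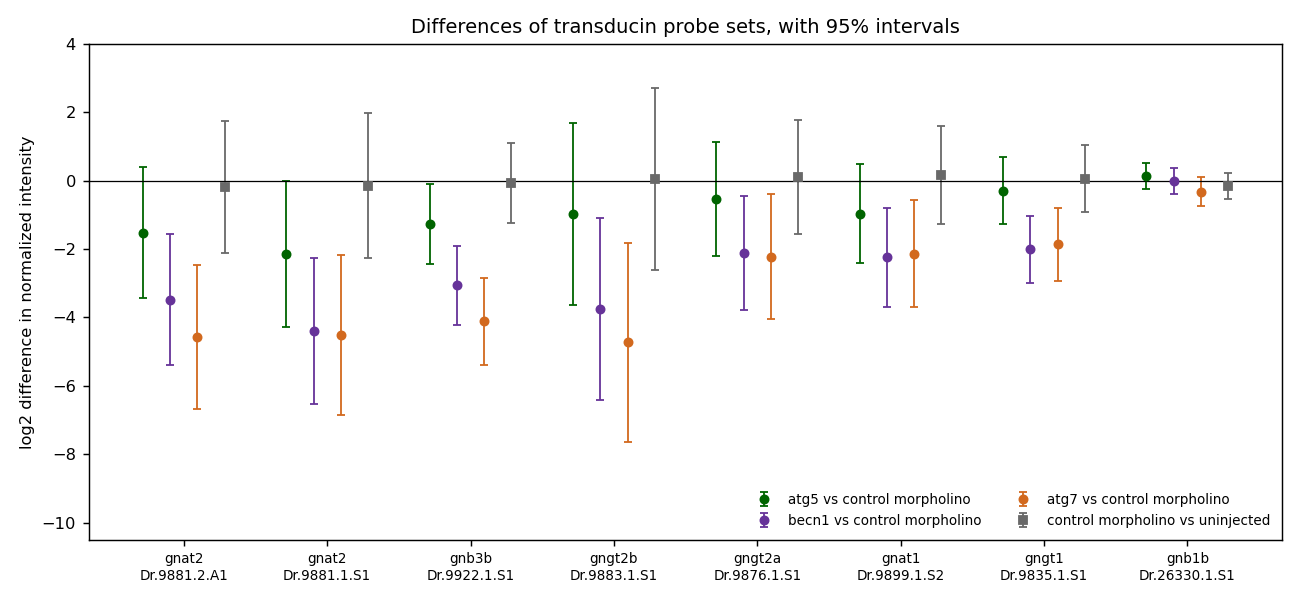
Log2 difference of each kept transducin probe set in atg5, becn1 and atg7 hearts against the control morpholino, and in control morpholino against uninjected hearts, with 95% intervals from the 5-group fit. The knockdown points of the 7 probe sets other than gnb1b lie below 0, gngt1 in atg5 hearts at -0.29 (0.01 on the deposited scale), and the points of gnb1b and of control against uninjected hearts lie near 0.

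The knockdowns were also set against each other, without pairing arrays by replicate number. The choice of the genes did not name these comparisons, but they share the knockdown arrays with those that were in view, so their p-values are not independent of it. For gnb3b the difference of becn1 from atg5 hearts was -1.79 (SE 0.48, limma adjusted p = 0.812), with all 3 becn1 arrays below all 3 atg5 arrays. In atg7 against atg5 hearts the gnb3b difference was -2.85 (SE 0.54, limma adjusted p = 0.143), again with no overlap. gngt1 differed by -1.71 (SE 0.40, limma adjusted p = 0.812) in becn1 and -1.57 (SE 0.45, limma adjusted p = 0.275) in atg7 hearts against atg5 hearts. No transducin probe set was called in either comparison. On the deposited scale 3 of the 8 were among 14 probe sets called in atg7 against atg5 hearts: gnb3b at -2.93 (limma adjusted p = 0.00196), gngt2b at -3.79 (limma adjusted p = 0.0178) and the brighter gnat2 probe set at -3.10 (limma adjusted p = 0.0211).

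Over all 8 kept probe sets the adjusted p was 0.812 to 0.890 for becn1 against atg5, where 0% of all probe sets were called and 630 had an unadjusted p under 0.05. It was 0.143 to 0.500 for atg7 against atg5, where 0.0194% were called. In becn1 hearts 4 of the 8 transducin probe sets lay below atg5 on all arrays, beside 5.24% of all probe sets, and in atg7 hearts 8 of the 8 did, beside 15.3%. The medians over the 7 genes were -1.71 for becn1 and -1.70 for atg7 against atg5. Between atg7 and becn1 hearts the median was -0.32 and the adjusted p was 0.963 to 0.994 (0.0194% of all called). 1 of 8 transducin probe sets, gnb1b, lay lower on both atg7 arrays than on all becn1 arrays, beside 7.88% of all. For gnb3b the difference of atg7 from becn1 was -1.05 with a 95% interval of -2.22 to 0.11, in the fit without pairing. The arrays of these 2 groups overlapped on gnb3b. By replicate number, gnb3b was 16.4 on atg7 1 against 22.0 on becn1 1, and 30.6 on atg7 2 against 43.3 on becn1 2. With the replicate block it was not called in this comparison either.

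The subunit genes did not keep the same proportions on the knockdown arrays. The log2 ratio of gnb3b to gngt1 within an array, which sets a cone gene against a rod gene and has no meaning as an absolute level, was -1.47, -0.99 and -1.43 on the atg5 arrays, -1.39, -1.77 and -0.97 on the becn1 arrays, -3.00 and -2.14 on the atg7 arrays, -0.41 and -0.23 on the control arrays and -0.17, -0.17 and -0.23 on the uninjected arrays. All 8 knockdown arrays were lower than the 5 others, the atg5 arrays included. Among the 5 control and uninjected arrays gnb3b itself varied from 261 to 614, while the ratio stayed between -0.41 and -0.17.

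The gnat2 to gngt1 ratio, with the brighter gnat2 probe set, was -1.24, -0.87 and -0.35 on the atg5 arrays, -2.21, -0.70 and -0.30 on the becn1 arrays, -3.20 and -1.39 on the atg7 arrays, 0.45 and 0.36 on the control arrays and 0.56, 0.38 and 0.98 on the uninjected arrays. It also separated the knockdown arrays from all others. The gngt2b to gngt1 ratio was 1.94, 2.38 and 2.13 on the atg5 arrays, -1.15, 1.83 and 2.60 on the becn1 arrays, -1.47 and 1.43 on the atg7 arrays, and 2.74 to 2.95 on the control and uninjected arrays. These 3 ratios were lower on every knockdown array than on any control or uninjected array. The gngt2a to gngt1 ratio did not separate them: it was -0.48, 0.51 and 0.24 on the atg5 arrays, -0.61, 0.83 and 0.42 on the becn1 arrays, -0.71 and 0.65 on the atg7 arrays, 0.54 and 0.10 on the control arrays and 0.48, 0.25 and 0.10 on the uninjected arrays. It was below the 5 control and uninjected arrays on the knockdown arrays numbered 1, above them on becn1 2 and atg7 2 and within their range on the 3 others. The separation also depended on the rod gene used. The gngt2b to gnat1 ratio was higher on atg5 1 (intensities 1374 and 32.5) than on control 2 (4124 and 101). The genes were chosen with knockdown against control differences in view, so nothing is read from how many ratios separated.

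The rod alpha and gamma genes did not separate the groups in this way. The gnat1 to gngt1 ratio was -3.46, -3.06 and -3.08 on the atg5 arrays, -3.45, -2.25 and -2.61 on the becn1 arrays, -3.17 and -2.42 on the atg7 arrays, -2.51 and -2.55 on the control arrays and -2.60, -2.67 and -2.63 on the uninjected arrays. The atg5 arrays were lower than all others but becn1 1 and atg7 1, whose gnat1 signals were under 16, and the remaining becn1 and atg7 arrays lay around the control arrays. Between the cone gamma genes, the gngt2b to gngt2a ratio was 2.42, 1.87 and 1.89 on the atg5 arrays, -0.54, 0.99 and 2.18 on the becn1 arrays, -0.75 and 0.79 on the atg7 arrays, 2.30 and 2.75 on the control arrays and 2.26, 2.58 and 2.86 on the uninjected arrays. All becn1 and atg7 arrays were thus below all control and uninjected arrays, and 2 of the 3 atg5 arrays were too.

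**Figure D3:**
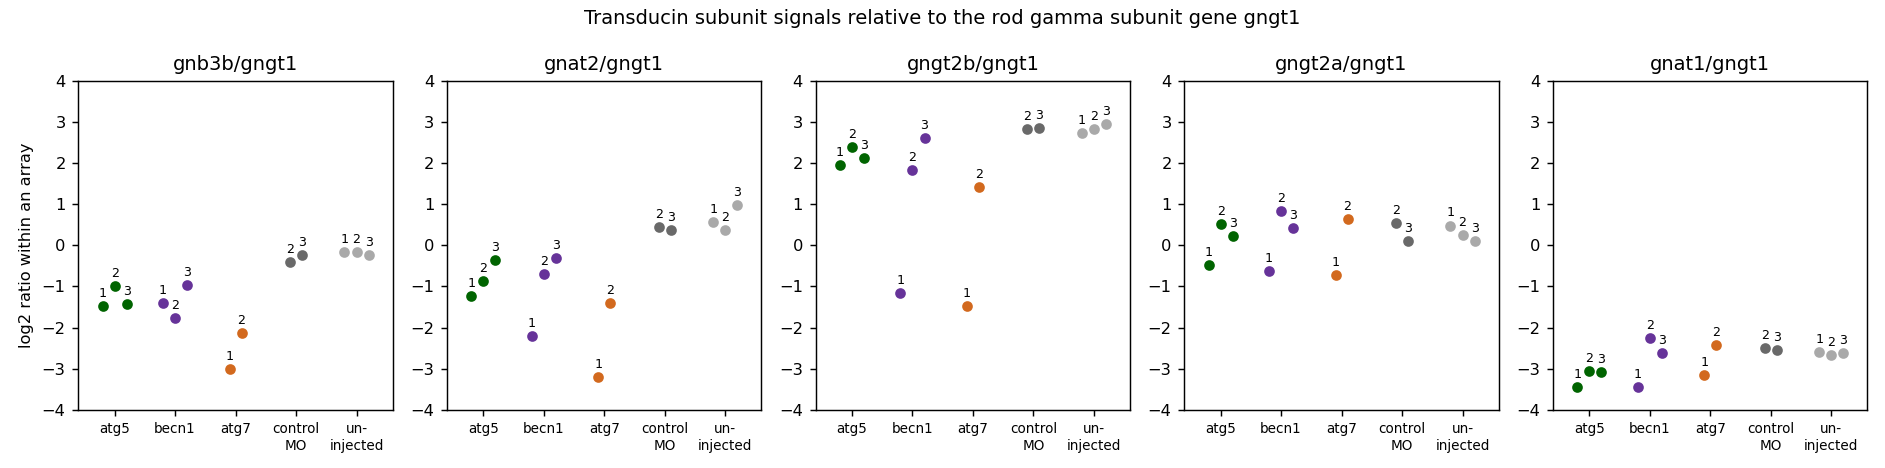
Log2 ratios within each array of gnb3b, gnat2, gngt2b, gngt2a and gnat1 to the rod gamma gene gngt1, by treatment, with replicate numbers. The ratios of gnb3b, gnat2 and gngt2b are lower on all 8 knockdown arrays than on the 5 control and uninjected arrays, and those of the cone gene gngt2a and of gnat1 overlap.

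The transducin genes other than gnb1b varied together from array to array. Among the 8 probe sets without gnb1b, including the gnat1 probe set that the filter dropped, Pearson's r over the 13 arrays was 0.871 to 0.977 in 28 pairs, and between gnb1b and the others it was 0.311 to 0.555 in 8 pairs. These are descriptions over arrays that share groups and preparations. For each of the 7 kept probe sets other than that of gnb1b, becn1 1 and atg7 1 were the lowest arrays, and uninjected 2 was the lowest of the uninjected arrays.

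The genes whose array profile was most like the mean of the transducin genes were ranked by Pearson's r over the 13 arrays among 7660 other probe sets with 1 symbol. The first was opn1sw2, the blue cone opsin gene, with r 0.982, followed by pdcb, a phosducin gene, with r 0.981. Phosducin binds the beta and gamma subunits of transducin. Next were opn1mw1, a green cone opsin gene, with r 0.979, opn1sw1, the ultraviolet cone opsin gene, with r 0.977, guk1b, a guanylate kinase gene, with r 0.973, and opn1mw2, another green cone opsin gene, with r 0.973. Of these, 5 of 6 are photoreceptor genes. The share of photoreceptor genes among the 7660 was not counted, and the transducins were chosen with these data in view, so nothing is read from this count. opn1mw2 was weak, at 4.76 to 44.2 and under 16 on 5 of the 13 arrays. Without becn1 1 and atg7 1, the arrays farthest from the median, r was 0.974 for opn1sw2, 0.979 for pdcb, 0.980 for opn1mw1, 0.963 for opn1sw1, 0.939 for guk1b and 0.955 for opn1mw2.

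guk1b had 40.8, 124 and 115 on the atg5 arrays, 2.25, 38.1 and 53.0 on the becn1 arrays, 6.77 and 24.7 on the atg7 arrays, 213 and 103 on the control arrays and 160, 63.9 and 135 on the uninjected arrays. The atg5 arrays overlapped the control and uninjected arrays, and the becn1 and atg7 arrays were lower than both. The genes with the lowest r were wdr36, a gene of ribosomal RNA processing in other species, at -0.954, and eme1, a subunit of a DNA endonuclease, at -0.943. eme1 had 54.2, 57.8 and 50.1 on the atg5 arrays, 100.4, 56.2 and 59.6 on the becn1 arrays, 120 and 73.4 on the atg7 arrays, 45.6 and 49.9 on the control arrays and 41.1, 56.7 and 43.1 on the uninjected arrays. Its 2 highest arrays were becn1 1 and atg7 1.

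**Figure D4:**
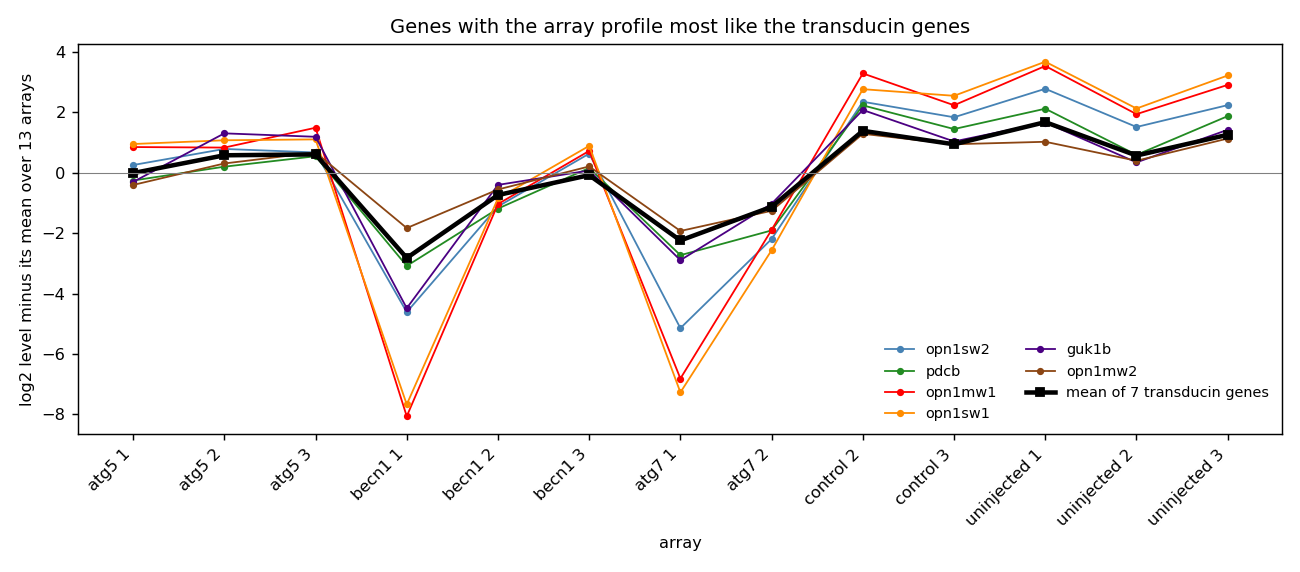
Log2 level of the 6 most alike genes, each minus its own mean over the 13 arrays, and the mean of the 7 transducin genes in black. The lines run together, lowest on becn1 1 and atg7 1, and those of opn1sw1 and opn1mw1 drop to intensities under 1 there.

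The wider phototransduction cascade was followed with a list of 52 genes outside the transducins, of which 24 were on the array and 12 kept. In each knockdown 12 of the 12 had a difference below 0 from the control morpholino, also on the deposited scale and with median centring. A gene can pass the intensity filter on control and uninjected arrays alone, and such a gene tends to be lower in the knockdowns by that selection. A gene high only on knockdown arrays could pass too. No differences are given for the listed genes that the filter dropped, so the count describes the kept genes and is no test of the cascade. The medians of the 12 kept genes were -1.57 in atg5, -2.74 in becn1 and -3.31 in atg7 hearts, and none was called. On the deposited scale 2 in becn1 and 8 in atg7 hearts were called, where 5 and 29 of all 10307 probe sets were called. Against uninjected hearts 0, 0 and 7 of 12 were called, all lower, in atg5, becn1 and atg7 hearts, beside 0%, 0.0097% and 3.08% of all probe sets, where 110 of the 317 called in atg7 hearts were lower. The list was drawn up with earlier results of these data known and is not independent of the transducins. Its least different member was rgs9b, a regulator that speeds GTP hydrolysis by transducin, with -0.30 in atg5, -0.48 in becn1 and -0.43 in atg7 hearts (SE 0.46, 0.46 and 0.50).

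Among the 4 members of the list named by rule, opn1sw1 had intensities of 190, 207 and 211 on the atg5 arrays, 0.48, 54.4 and 182 on the becn1 arrays, 0.64 and 16.6 on the atg7 arrays, 669 and 574 on the control arrays and 1255, 429 and 915 on the uninjected arrays. No knockdown array reached the lowest control or uninjected array. With values under 16 set to 16, opn1sw1 differed from the control morpholino by -1.61 in atg5, -3.52 in becn1 and -5.25 in atg7 hearts. The same floored differences were -1.70, -3.65 and -4.88 for opn1mw1, and -1.52, -3.69 and -5.34 for opn1sw2. pdcb had 59.0, 81.2 and 103 on the atg5 arrays, 8.33, 31.0 and 78.7 on the becn1 arrays, 10.6 and 18.8 on the atg7 arrays, 331 and 192 on the control arrays and 307, 106 and 259 on the uninjected arrays. Its floored differences were -1.68, -2.90 and -3.86.

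Other heterotrimeric G protein subunit genes, which serve receptors in many cell types, had smaller differences. Of 35 listed genes 14 were on the array and all 14 were kept. Their median difference from the control morpholino was 0.03 in atg5, -0.12 in becn1 and -0.27 in atg7 hearts, with 9, 5 and 5 of 14 above 0 and none called. On the deposited scale 14, 11 and 7 of 14 were above 0, so these signs turn with the scaling. Against uninjected hearts 1 of 14 was called, in atg7 hearts, where 3.08% of all probe sets were called, so nothing is read from this count. It was gnb1a, the paralog of gnb1b, which fell by 1.17 on the log2 scale (SE 0.23, limma adjusted p = 0.0328). On the deposited scale it was not called (limma adjusted p = 0.153). On this probe set gnb1a had 283, 358 and 288 on the atg5 arrays, 225, 283 and 396 on the becn1 arrays, 193 and 202 on the atg7 arrays, 292 and 353 on the control arrays and 450, 405 and 476 on the uninjected arrays. Its difference from the control morpholino in atg7 hearts was -0.70 (SE 0.25) and was not called. The other kept gnb1a probe set differed by -1.23 (SE 0.29, limma adjusted p = 0.0449) in atg7 against uninjected hearts, and it too was not called on the deposited scale (limma adjusted p = 0.136). gnb1a was named after its values were seen.

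Averaged over the 3 knockdowns, the largest difference from the control morpholino among these 14 was that of gng13b (-1.15), a gamma subunit gene whose mammalian counterpart is used in retinal bipolar cells and taste cells. It had 423, 1097 and 1200 on the atg5 arrays, 34.0, 815 and 672 on the becn1 arrays, 62.4 and 707 on the atg7 arrays, 831 and 762 on the control arrays and 1150, 516 and 867 on the uninjected arrays. Only the knockdown arrays numbered 1 were below all control and uninjected arrays. The 3 alpha subunit genes next in this order had smaller differences. gna12a differed by 0.45 (SE 0.25), 0.26 (SE 0.25) and 0.25 (SE 0.27) in atg5, becn1 and atg7 hearts. gna11b, of the Gq class, differed by -0.06, -0.29 and -0.60, and gnai2b, of the inhibitory class, by 0.35, -0.36 and -0.88.

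Markers of other cell types were read on the same arrays, because a heart preparation from whole embryos can hold cells of the eye and other tissues. Of 16 listed markers of other retinal cells 12 were on the array and 11 kept. Their mean log2 level was 7.04, 7.94 and 7.89 on the atg5 arrays, 6.48, 7.63 and 7.68 on the becn1 arrays, 6.74 and 7.72 on the atg7 arrays, 7.66 and 7.61 on the control arrays and 7.60, 7.34 and 7.70 on the uninjected arrays. It was lowest on the 3 knockdown arrays numbered 1, and on the other 5 knockdown arrays it was within or above the range of the control arrays. The mean covers unlike genes: averaged over the 3 knockdowns, calb2b differed by -1.66 from the control morpholino and atoh7 by 0.89. It therefore does not measure how much retinal tissue a preparation held. Against the control morpholino 8 of the 11 were below 0 in becn1 and in atg7 hearts, and 3 above. In atg5 hearts 5 of the 11 markers were below 0 and 6 above. Their summed intensity was 2682 to 4948 on the atg5, 2292 to 4030 on the becn1, 2225 to 3760 on the atg7, 3665 to 4074 on the control and 3073 to 4272 on the uninjected arrays, with no marker at 0.

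Of 16 markers of photoreceptor identity 12 were on the array and 9 kept. Their mean log2 level was 5.71, 6.92 and 6.85 on the atg5 arrays, 5.28, 6.50 and 6.83 on the becn1 arrays, 5.79 and 6.55 on the atg7 arrays, 6.71 and 6.57 on the control arrays and 6.50, 6.43 and 6.95 on the uninjected arrays. It too was lowest on the 3 knockdown arrays numbered 1. On becn1 2 and atg7 2 it was below both control arrays and within the range of the uninjected arrays. Summed intensities were 946 to 2106 on the atg5, 877 to 1758 on the becn1, 1150 to 1572 on the atg7, 1482 to 1552 on the control and 1356 to 1922 on the uninjected arrays. The list was not uniform, so its mean does not measure how many photoreceptors a preparation held. rom1b, a tetraspanin gene of the outer segment discs, had the largest differences from the control morpholino, at -1.15, -1.87 and -1.90 for atg5, becn1 and atg7 (SE 0.66, 0.66 and 0.73), with all 8 knockdown arrays below both control arrays and 5 of them under 16. rp1l1a, a gene of the RP1 family, followed with -0.31, -0.97 and -1.45 (SE 0.92, 0.92 and 1.01), and its knockdown arrays overlapped the control arrays. Averaged over the 3 knockdowns, the difference was 0.52 for unc119b, 0.08 for isl2a, 0.05 for tbx2b and -0.62 for crx. crx, a transcription factor that directs photoreceptor differentiation, had 154, 516 and 483 on the atg5 arrays, 45.6, 326 and 372 on the becn1 arrays, 93.5 and 302 on the atg7 arrays, 317 and 349 on the control arrays and 347, 260 and 498 on the uninjected arrays. On becn1 2, becn1 3 and atg7 2, crx was within the joint range of the control and uninjected arrays. Against the control arrays alone, crx was below both on atg7 2 (302) and not on becn1 2 or becn1 3. rom1b was below both control arrays on each of these arrays. What either gene says of the number of photoreceptors in a preparation was not tested.

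Heart markers were highest on the 3 arrays where the markers of other retinal cells were lowest. Of 19 listed heart markers 13 were on the array and 9 kept, with mean log2 levels of 8.03, 6.25 and 6.66 on the atg5 arrays, 7.96, 6.40 and 6.44 on the becn1 arrays, 8.43 and 6.23 on the atg7 arrays, 7.05 and 6.54 on the control arrays and 7.04, 7.25 and 6.56 on the uninjected arrays. Summed, they were 1205 to 4962 on the atg5, 1536 to 4992 on the becn1, 1107 to 7016 on the atg7, 1725 to 2124 on the control and 1787 to 2945 on the uninjected arrays. These were the knockdown arrays numbered 1, which were also the lowest of their groups for gnat2 on its brighter probe set, gnb3b, gngt2a, gngt2b, gnat1 and gngt1. The part of these arrays in the transducin values was not tested. Without them gnb3b differed from the control morpholino by -1.11 in atg5 and -2.52 in becn1 hearts, and by -3.66 on atg7 2 alone. For gngt2a the same values were -0.16, -1.16 and -1.52. Those of the other genes are given above.

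Of the remaining lists, the 3 kept markers of pigment epithelium and melanin had mean log2 levels of 4.96 to 5.94 on the atg5, 4.30 to 5.60 on the becn1, 5.61 to 5.78 on the atg7, 5.44 to 8.03 on the control and 4.97 to 8.40 on the uninjected arrays, highest on control 2 and uninjected 1. Summed, they were 138 to 211, 78.9 to 259, 162 to 259, 160.0 to 829 and 152 to 1079 on these groups of arrays. All 3 were below 0 in each knockdown against both control and uninjected hearts, and none was called. Their median difference from the control morpholino was -1.14 in atg5, -1.95 in becn1 and -0.96 in atg7 hearts. Uninjected 1 and control 2 were also the highest arrays for the mean of the 7 transducin genes. The 3 kept lens markers were at 8.81 to 10.45 on the atg5, 7.39 to 10.32 on the becn1, 10.32 to 10.72 on the atg7, 9.13 to 10.23 on the control and 8.79 to 10.50 on the uninjected arrays. Their mean on both atg7 arrays was above that on both control arrays. The 2 kept genes of the pineal list were unlike: averaged over the 3 knockdowns, rbp3 differed by -1.35 from the control morpholino and aanat2 by -0.12. Summed, these 2 genes were 56.4 to 77.7 on the atg5, 21.6 to 59.2 on the becn1 and 34.1 to 47.4 on the atg7 arrays. They were 50.1 to 106 on the control and 35.6 to 132 on the uninjected arrays. As the 2 genes were unlike, this sum does not measure how much pineal tissue a preparation held. The part of these lists in the transducin values was not tested.

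**Figure D5:**
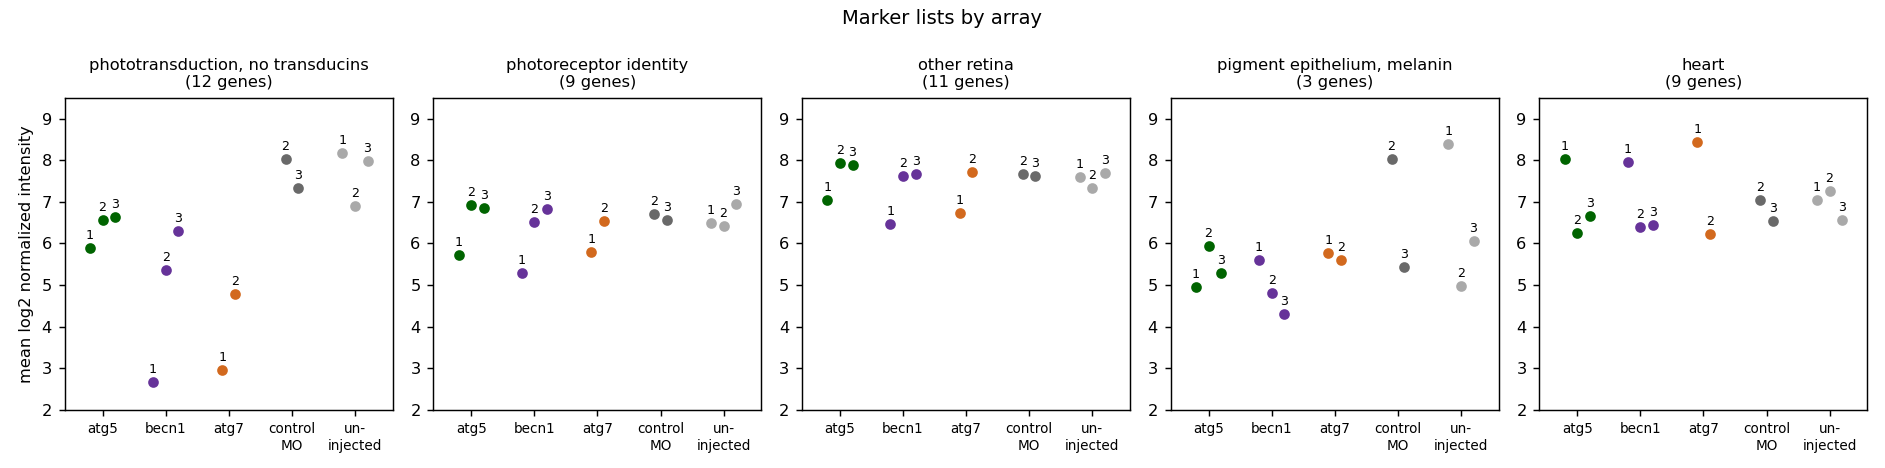
Mean log2 normalized intensity, per array, of the kept markers of phototransduction without the transducins (12 genes), photoreceptor identity (9), other retina (11), pigment epithelium and melanin (3) and heart (9), with replicate numbers. On the becn1 arrays numbered 2 and 3 and the atg7 array numbered 2 the phototransduction list is at 5.36, 6.30 and 4.78, below the 6.90 to 8.18 of the control and uninjected arrays. The other retina list is at 7.63 to 7.72 on these arrays. Single genes of the other retina list differed in both directions, from calb2b at -1.66 to atoh7 at 0.89 averaged over the 3 knockdowns. Its mean therefore does not measure how much retinal tissue a preparation held.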

How the data were processed

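The authors deposited a table of linear intensities, 1 per probe set and array. MAS5 is the tool the submitters' processing notes name, and neither its version nor a scaling target is given. Hearts were dissected from whole embryos and total RNA was labelled as biotinylated cRNA, per the labels' protocols, one of which names tumours as its source. Of 15617 probe sets 115 controls were left out. Platform annotation updated through the current gene table gave 1 symbol to 10795 of the 15502 left, several to 135 and none to 4572. Intensities were quantile normalized as log2 values. Kept were probe sets that exceeded their array's 40th percentile on 2 or more arrays. limma 3.58.1 under R 4.3.3 fitted the 5 group means over the 13 arrays, its prior variance following the mean (8 residual and 4.61 prior degrees of freedom), 10 comparisons, two-sided, adjusted by Benjamini and Hochberg within each over 10307 probe sets and called under 0.05. The fit was tested on simulated data.

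The genes and lists were chosen with earlier results of these data known. Named were every member, up to 4 genes per list with the largest absolute mean difference from the control morpholino that were under 16 on at most 6 arrays, and the 6 most and 2 least alike genes. Genes of a list with several probe sets were given by 1 kept probe set. Deviations of same-numbered arrays correlated at -0.41 to 0.62 (median 0.13, 22 pairs), with 12 over 0.1, so the numbers were not taken to pair knockdown with control or uninjected arrays. For becn1 and atg5 arrays the 3 pairs gave 0.42, 0.12 and 0.14. The atg7 group shares only 2 numbers with each of these groups, at 0.31 and 0.43 with atg5 and 0.62 and 0.58 with becn1. The fit behind the values above held no replicate block, so its SEs and p-values ignore any pairing, also between the knockdown groups. Alternatives were the deposited scale, median centring, no filter or a 60th percentile filter, a floor of 16, no trend, only the compared groups, the replicate block, both control groups as 1 and leaving out single arrays. Sequences and coordinates were not used here.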

Additional observations from a re-analysis of the deposited data

How the results depend on the processing

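The direction of the 7 transducin probe sets other than gnb1b held in all but 2 of 42 differences of knockdown from control or uninjected hearts over 616 refits, the exceptions being gngt1 in atg5 hearts at 0.01 (deposited scale, against control) and 0.05 (without uninjected 1). The 616 include refits with no filter, a stricter filter, no trend or the compared groups alone. Those change p-values and leave the differences as they were, so no direction could turn in them. The same holds for such refits among the medians. All 154 refitted medians over the 7 genes moved by less than 1.00 on the log2 scale, the spread between arrays. That limit exceeds the atg5 medians themselves, -0.96 against control and -0.80 against uninjected hearts, so it cannot show that these held. Counts of called probe sets over the whole array moved more. For becn1 against control, 0 became 5 on the deposited scale, 25 with the replicate block, 14 with both control groups as 1, 1 without the knockdown arrays numbered 1 and 0 to 1 leaving out single arrays. For atg7 against control, 6 (5 higher, 1 lower) became 29 on the deposited scale (9 higher, 20 lower), 18 with a floor of 16 (12 higher, 6 lower), 137 with both control groups as 1 (81 higher, 56 lower), 13 without the arrays numbered 1 (4 higher, 9 lower), 0 to 2 leaving out single arrays and 0 with no filter, a stricter filter, no trend, the compared groups alone or the replicate block. For atg5 against uninjected, 0 became 1 with the replicate block. For becn1 against uninjected, 1 (lower) became 45 (deposited scale; 6 higher, 39 lower), 11 (median centring; 6 higher, 5 lower), 6 (floor of 16), 4 (no trend), 0 (compared groups alone), 6 (replicate block), 14 (without the arrays numbered 1) and 0 to 42 (single arrays). For atg7 against uninjected, 317 (207 higher, 110 lower) became 118 (deposited scale; 31 higher, 87 lower), 683 (median centring; 534 higher, 149 lower), 122 (no filter), 29 (compared groups alone), 178 (replicate block), 173 (without the arrays numbered 1) and 11 to 413 (single arrays). For atg7 against atg5, 2 became 14 (deposited scale), 5 (median centring), 0 (stricter filter or compared groups alone), 1 (replicate block or without the arrays numbered 1) and 0 to 2 (single arrays). For atg7 against becn1, 2 became 0 with the stricter filter, no trend, the compared groups alone, the replicate block or without the arrays numbered 1, and 0 to 2 leaving out single arrays. The cause was not tested. Of the transducins, gnb3b was called in 5 of 14 refits in atg7 against control, 13 of 14 in atg7 against uninjected, 3 of 15 in becn1 against control and 7 of 15 in becn1 against uninjected hearts. In the same order the brighter gnat2 probe set was called in 2, 10, 1 and 2 refits, the dimmer in 4, 9, 2 and 4, gngt1 in 1, 5, 1 and 2, gngt2b in 3, 3, 0 and 1, and gnat1 in 0, 2, 0 and 1. The replicate block lost the gnb3b call in atg7 against control hearts and the dimmer gnat2 call in atg7 against uninjected hearts. It gave a gnb3b call in becn1 against uninjected hearts and changed no transducin call in becn1 against atg5 hearts. The genes were chosen with these comparisons in view, so the counts of refits with a transducin call are no test. Those refits share arrays, and the calls over the whole array changed between settings as given above. Where 1 atg7 or control array is left out, the remaining one is assumed to vary like the other groups. The number of arrays and signals near 16 limit the precision; 15 of the 117 transducin values were under 16.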
